A study of Mus musculus with 19 samples.

Results

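Serotonin receptors are the subject here: 7 genes, Htr1b, Htr1d, Htr2a, Htr2c, Htr4, Htr6 and Htr7, taken by symbol from the 39017 genes in the deposited tables. All 7 were found by their Ensembl identifiers, and all 7 passed the filter on low counts, Htr4 and Htr7 mainly through their D2 libraries. The study used translating ribosome affinity purification (TRAP), in which a green fluorescent tag on the ribosomal protein L10a is pulled down together with the mRNA bound to those ribosomes. The tissue was mouse striatum. D1 libraries came from the strain Drd1::EGFP-L10a and D2 libraries from Drd2::EGFP-L10a, both on what the labels call a C56BL/6J background, and all mice were female. Each strain was sampled at 42 days and at 2 years of age, with 4 biological replicates in each of the 4 groups. Both ages and both neuron kinds carry the tagged transgene, and no untagged control was analysed here. The Drd1 and Drd2 sequences that drive the tag decide which cells are read, and Drd2 is also active in cholinergic interneurons of the striatum.

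Serotonin reaches the striatum in axons from the dorsal raphe, and spiny projection neurons read it through receptors coupled to different G proteins. Htr1b and Htr1d act through Gi/o and lower cyclic AMP, and Htr1b is best known as a receptor carried to axon terminals, where it restrains transmitter release. Htr2a and Htr2c act through Gq and phospholipase C, whereas Htr4, Htr6 and Htr7 act through Gs and raise cyclic AMP. Htr6 and Htr4 are known for high expression in striatum, and Htr2c is the family member whose mRNA is recoded by adenosine-to-inosine editing.

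The Htr2c mRNA carries the clearest sequence feature among the 7 genes, and it bears on how its values were split between isoforms. The full-length isoform Htr2c-201 holds 95 bases of exon 5 that the isoform Htr2c-207 skips. They lie in the coding sequence at chrX:147169676-147169770 (GRCm38, plus strand, GENCODE M21 annotation), and the capitals mark the 13 bases at chrX:147169686-147169698 that hold the known editing sites.

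Htr2c stretch skipped in Htr2c-207: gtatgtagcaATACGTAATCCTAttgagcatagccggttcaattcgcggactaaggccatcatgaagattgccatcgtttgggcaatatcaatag

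Without the stretch the annotated coding sequence falls from 1377 to 516 bases. Both isoforms are shown across that junction, with the last 15 bases before the junction in lower case and the first 15 of the next exon, common to both, in capitals.

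Htr2c-201 junction: gggcaatatcaatagGAGTTTCAGTTCCTA
Htr2c-207 junction: catatcgctggaccgGAGTTTCAGTTCCTA

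Members of one subfamily are similar enough that shared fragments were checked for. Over the 21 pairs of members, the longest identical run of transcript bases was 26, between Htr2a (chr14:74645056-74645081) and Htr2c (chrX:147169638-147169663), and it is shown because it is the longest stretch that the letters of any pair share.

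Htr2a and Htr2c shared run: gcgtccatcatgcacctctgcgccat

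The next longest run was 20 bases, between Htr1b and Htr1d. The mean length of a sequenced fragment was 151 to 195 bases, longer than both runs.

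The 16 libraries held 27484038 to 70903004 assigned fragments. The old D1 libraries stood apart from the other 12 in mean fragment length, 151 to 164 bases against 170 to 195, and in the share of fragments given to the gene Gm42418, 4.45 to 5.41% against 9.76 to 18.19%. They had a count for 10364 to 13694 genes, a range that overlapped with 12770 to 14992 in the others. Every comparison with old D1 below rests on these 4 libraries, and the part of this difference in the results was not tested. The labels were checked against marker genes: 8 of 8 D1 neuron markers were higher in D1 at both ages (Drd1, Tac1, Pdyn, Chrm4, Isl1, Eya1, Ebf1 and Slc35d3). Of 7 tested D2 neuron markers, Drd2, Penk, Gpr6, Sp9, Grik3 and Ptprm were lower in D1 at both ages and Adora2a at 2 years. Summed D1 markers in D2 libraries ran from 135 to 156 TPM at 42 days and from 420 to 678 TPM at 2 years, and Drd1, Chrm4 and Tac1 rose with age in D2. In the other marker lists the calls were Foxp1, Gad2 and Ppp1r1b of both kinds of projection neuron, Lhx8, Tbr1, Cnp and Nos1, besides Tac1 with age in D1 and Drd1 and Chrm4 in the difference of age changes. Levels below are TPM, a gene's share of all transcripts after division by length, which allow genes of different length to be compared within a library. Tests are edgeR's quasi-likelihood test on the counts, with log2 fold changes, their standard errors (SE) and p-values adjusted by Benjamini-Hochberg over all 13926 genes tested, called under 0.05. In such bulk pulldowns, fewer cells that carry an mRNA and less mRNA per cell cannot be told apart.

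Htr1b, Htr1d and Htr2c were the most abundant of the 7 receptors in every group, followed by Htr2a and Htr6, with Htr4 and Htr7 under 1 TPM in every D1 library. In young D2 neurons the order of mean TPM was Htr1b, Htr1d, Htr2c, Htr2a, Htr6, Htr7 and Htr4, and every pair of neighbours in it overlapped between libraries. In old D2 neurons the order was Htr1b, Htr1d, Htr2c, Htr2a, Htr6, Htr4 and Htr7, and the ranges did not overlap from Htr2c to Htr2a and from Htr2a to Htr6. In young D1 neurons Htr1d led with 44.4 ± 9.33 TPM (SD, n = 4), above Htr1b in 3 of 4 libraries but with overlapping ranges. Clear steps there lay between Htr2c and Htr2a and between Htr6 and Htr4. In old D1 neurons the step without overlap lay between Htr6 and Htr7. Htr1b in young D2 exceeded 83.9% of the 16814 genes with a mean TPM above 0 in that group, whereas Htr4 in old D1 exceeded 2.0% of the 14986 in its group.

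**Figure D1:**
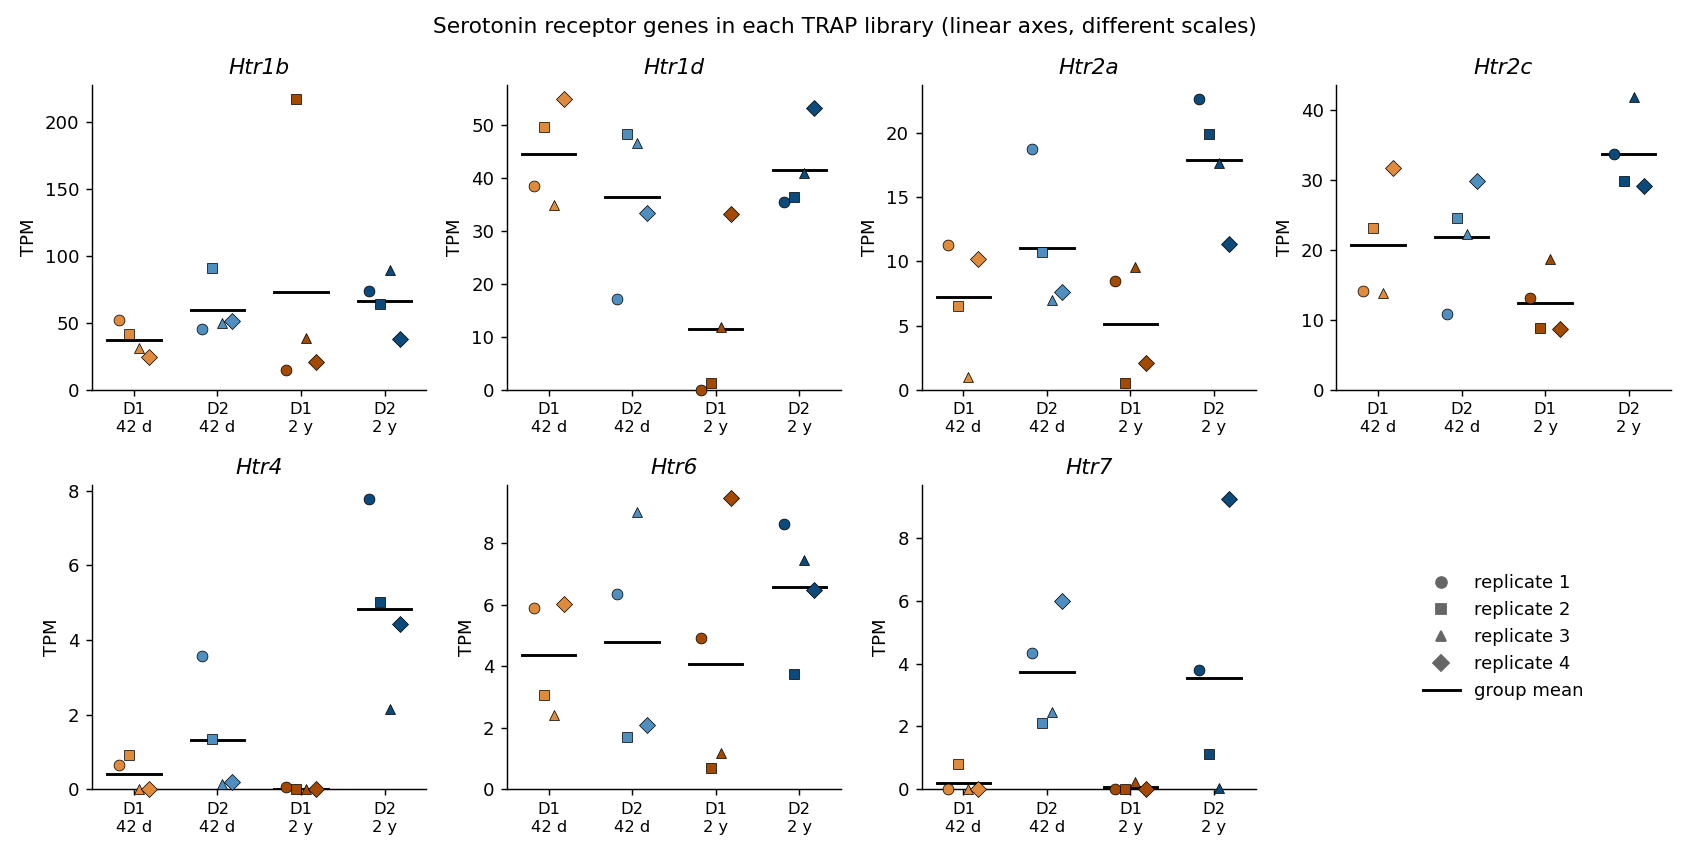
TPM of each serotonin receptor gene in each of the 16 libraries, grouped by neuron kind and age (42 d, 42 days; 2 y, 2 years). Points are libraries, their shape gives the replicate, which pairs nothing across groups, and horizontal lines are group means. Htr1d, Htr2a, Htr2c and Htr4 show old D2 libraries all above old D1 libraries, and of these Htr2c and Htr4 were called. The share of all genes that separate in this way was not computed. For Htr1b, 1 old D1 library stands at 217 TPM.

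Which receptors differ between D1 and D2 neurons was asked at each age, and how each kind changes with age was asked next. At 42 days none of the 7 receptors was called (57 of 13926 genes, 0.409%, were called in that comparison). At 2 years Htr2c and Htr4 were lower in D1 than in D2, which is 2 of 7 against 9.6% of all genes. None was called for the age change in D1 (10.8% of genes called), for the age change in D2 (0.079%) or for the difference between those age changes (1.77%). In D1 against D2 at 2 years, 6 of 7 log2 fold changes were negative with a median of -1.56, beside a median of -0.07 over all genes tested. Over all genes that median was -0.40 with limma-voom, -0.30 on log2(TPM + 1) and -0.55 on log2(TPM + 0.1). The median of the 7 was -0.47 at 42 days, beside 0.02 over all genes. It was -0.84 for the age change in D1, beside -0.06, and 0.56 for the age change in D2, beside 0.01. The D1 comparison at 2 years and the age change in D1 share the 4 old D1 libraries, so they are not separate evidence.

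**Figure D2:**
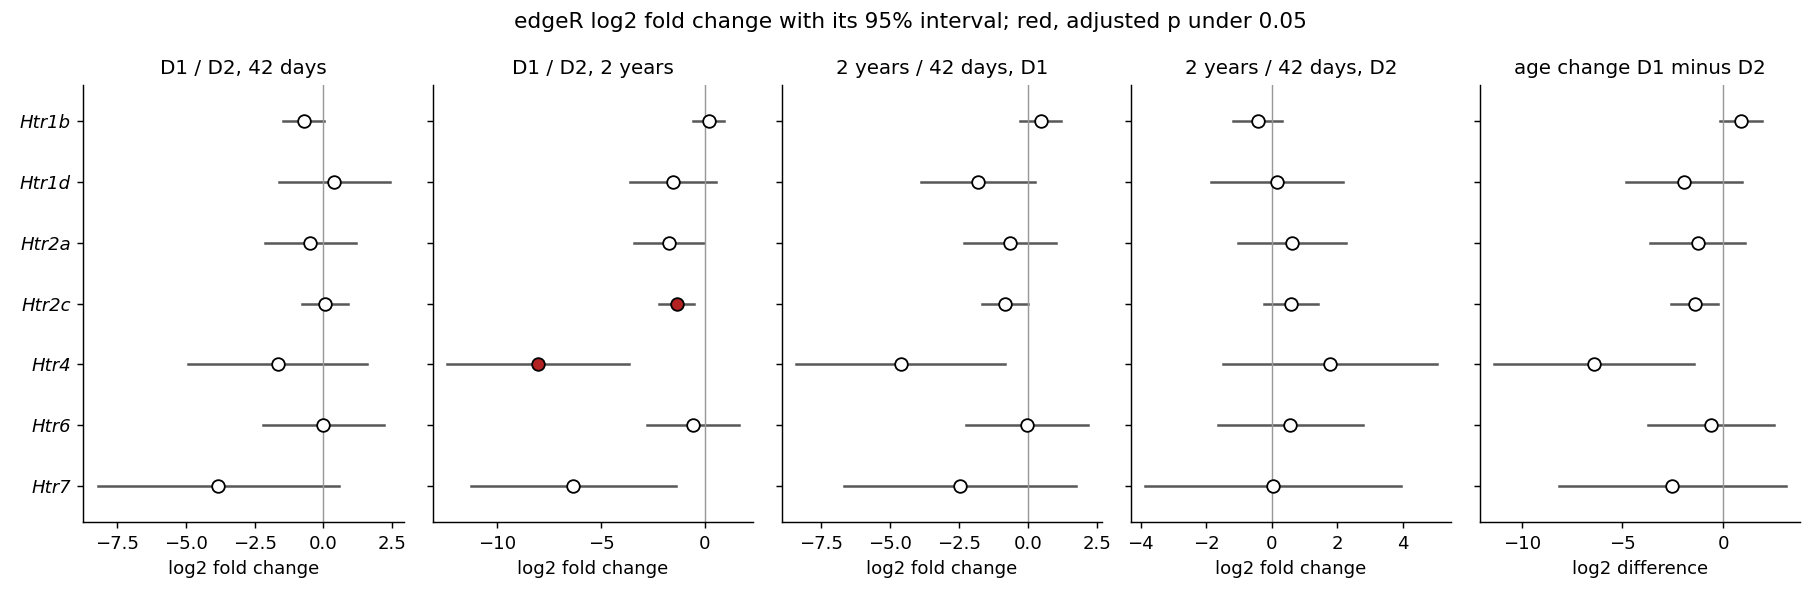
Log2 fold change of each receptor from edgeR with its 95% interval in 5 comparisons, on axes of different range. Negative values are lower in D1 (first 2 panels) or lower at 2 years (both age panels), and the last panel is the age change in D1 minus that in D2. Filled red points, Htr2c and Htr4 in D1 against D2 at 2 years, were called at an adjusted p under 0.05.

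Of the Gi/o receptors, Htr1b was measured at 52.2, 41.9, 30.8 and 24.2 TPM in young D1 libraries and at 45.1, 90.8, 49.8 and 51.2 TPM in young D2. In old D1 it stood at 14.4, 217, 38.7 and 21.0 TPM and in old D2 at 73.8, 64.3, 89.2 and 37.5 TPM. The TPM ranges of D1 and D2 overlapped at both ages, and the old D1 group was set apart by its second replicate alone. On CPM (counts relative to the library total, scaled by TMM and not corrected for length), the young groups did not overlap: 41.0 to 69.1 in D1 and 84.3 to 107 in D2. That difference, a log2 fold change of -0.70 (SE 0.36), was not called (edgeR adjusted p = 0.879; 95% interval -1.45 to 0.04). At 2 years the log2 fold change was 0.19 (SE 0.36), and it turned to -0.38 without the second old D1 replicate. For the age change in D1 it was 0.47 (SE 0.36), and -0.11 without that library.

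Htr1b fragments are hard to assign for a reason in its annotation. The gene lies on the minus strand at chr9:81628291-81633828, and exons of the antisense gene D430036J16Rik overlap 852 of its exon bases. Whether the counting used strand is not given, so reads of the 2 genes cannot be told apart in that overlap. The antisense gene was given 1984 to 3974 fragments in young D1, 2485 to 3430 in young D2 and 2593 to 3694 in old D2, beside 1914 to 5718 for Htr1b over those 3 groups. In old D1 it was given 324, 2756, 1781 and 357 fragments, beside 1093, 7366, 3020 and 1731 for Htr1b, so the second replicate was the highest for both genes. With both genes counted together, an alternative chosen after seeing the data, the log2 fold change of D1 against D2 was -0.40 at 42 days and -0.29 at 2 years, and neither was called (edgeR adjusted p = 0.999 and 0.660).

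Htr1b counts were split between isoforms, and which of them the overlap touches was not examined. Htr1b-201 is a single exon of 1273 bases inside Htr1b-202, which is 4724 bases long and holds the same coding sequence of 1158 bases. Htr1b-201 took 69.5% of the gene's estimated counts in the second old D1 replicate, against 0, 5.19 and 0% in the other 3 old D1 libraries. It took 0 to 28.6% in young D1, 1.42 to 34.8% in young D2 and 5.19 to 56.7% in old D2. TPM divides by length, so a larger share of the short form gives a higher TPM for the same count; that library stood at 217 TPM and at 158 CPM, the highest of the 16 on both scales.

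Htr1d, the second Gi/o receptor, stood at 38.5, 49.5, 34.8 and 54.7 TPM in young D1, at 17.1, 48.3, 46.5 and 33.2 TPM in young D2 and at 35.4, 36.3, 40.9 and 53.2 TPM in old D2. In old D1 it was listed at 0, 1.19, 11.8 and 33.1 TPM. The first 3 old D1 libraries were the lowest of all 16, while the fourth lay within the range of young D2. In TPM every old D2 library lay above every old D1 library. In CPM these ranges overlapped, at 0 to 52.8 in old D1 and 40.6 to 60.0 in old D2. In counts these were 0, 71, 582 and 1642 fragments, and a count of 0 in the first library allows up to 0.0885 CPM (3 counts, counting error only). The log2 fold change of old D1 against old D2 was -1.56 (SE 0.99, edgeR adjusted p = 0.354) and that of old against young D1 was -1.81 (SE 0.99, edgeR adjusted p = 0.256). Both changes passed the threshold without the fourth old D1 replicate, at -3.28 (edgeR adjusted p = 0.0422) and -3.53 (edgeR adjusted p = 0.0273), and on log2(TPM + 1) with limma, at -2.91 (adjusted p = 0.0209) and -3.01 (adjusted p = 0.0177). Whether Htr1d was called thus depended on 1 library and on the scale.

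Htr2a, a Gq receptor better known from cortical pyramidal neurons, was measured at 11.3, 6.48, 1.01 and 10.2 TPM in young D1 and at 18.8, 10.7, 6.99 and 7.62 TPM in young D2. At 2 years it stood at 8.43, 0.55, 9.55 and 2.05 TPM in D1 and at 22.6, 19.9, 17.7 and 11.3 TPM in D2. The 4 old D2 libraries lay above the 4 old D1 libraries, and the young groups overlapped. The log2 fold change at 2 years was -1.73 (SE 0.81, edgeR adjusted p = 0.187) and kept its sign in all 24 alternatives run, none of which called it. Summed markers of glutamatergic neurons ran from 0.09 to 139 TPM in old D1 and from 0.06 to 2.66 TPM in old D2, and Tbr1 of that list was called higher in D1 at 2 years. The part of these cells in the Htr2a values was not tested.

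Htr2c, the other Gq receptor, was lower in old D1 than in old D2 neurons. In young D1 it stood at 14.1, 23.2, 13.8 and 31.7 TPM and in young D2 at 10.9, 24.5, 22.3 and 29.9 TPM, 2 overlapping ranges. In old D1 it was measured at 13.2, 8.89, 18.7 and 8.75 TPM and in old D2 at 33.7, 29.9, 41.9 and 29.2 TPM. Every old D2 library lay above every old D1 library. On the count scale the means were 28.4 ± 9.14 CPM in old D1 and 72.8 ± 16.02 CPM in old D2 (SD, n = 4 each), a log2 fold change of -1.36 (SE 0.41, edgeR adjusted p = 0.0405; 95% interval -2.21 to -0.51). At 42 days the log2 fold change was 0.06 (SE 0.40; 95% interval -0.77 to 0.89).

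The call for Htr2c is close to the threshold. Its log2 fold change lay between -1.60 and -1.19 over 24 alternatives, while the adjusted p ran from 0.00816 to 0.176 and was above 0.05 in 11 of them. These were limma-voom, the fit of only the compared groups, and leaving out, one at a time, young D1 replicate 2, young D2 replicate 3, old D1 replicates 1, 2 and 4, and each of the 4 old D2 replicates, whose edgeR adjusted p was 0.0542 to 0.1105. With age, Htr2c moved by -0.84 in D1 (SE 0.40, edgeR adjusted p = 0.186) and by 0.58 in D2 (SE 0.40, edgeR adjusted p = 1). The difference between these changes was -1.42 (SE 0.57, edgeR adjusted p = 0.196) and was not called, so an age change particular to one neuron kind was not shown. Choroid plexus is known for very high Htr2c. Of its 8 listed markers Folr1, Kcnj13 and Slc4a5 were at 0 in every library, and the summed list ran from 23.6 to 215 TPM in old D1 and from 28.2 to 37.6 TPM in old D2. The highest old D1 value came from replicate 2, with Ttr at 100.2 and Enpp2 at 99.6 TPM. The part of these cells in the Htr2c values was not tested.

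RSEM split the Htr2c counts between the full-length isoform and the one that lacks the stretch printed above. Htr2c-207 took 24.4, 26.1, 0 and 95.8% of the gene's estimated counts in young D1 and 2.70, 78.6, 38.8 and 8.35% in young D2. It took 0, 0, 0 and 100% in old D1, the last with 710 fragments, and 34.6, 2.96, 4.90 and 9.84% in old D2. Libraries of one group differed from each other by up to the full range, in old D1, and ranges of all groups overlapped. In 11 of 16 libraries at least 90% of the counts went to a single isoform. Editing at the marked bases was not measured, since the tables hold counts and not bases. The editing enzymes were present and not called in any comparison. Adarb1 ran from 30.4 to 58.6 TPM in young D1, 42.4 to 54.5 in young D2, 16.6 to 47.7 in old D1 and 56.6 to 103 in old D2 (2 years, log2 -0.52, SE 0.27, edgeR adjusted p = 0.237). Adar ran from 9.19 to 35.2 TPM over all 16 libraries.

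**Figure D3:**
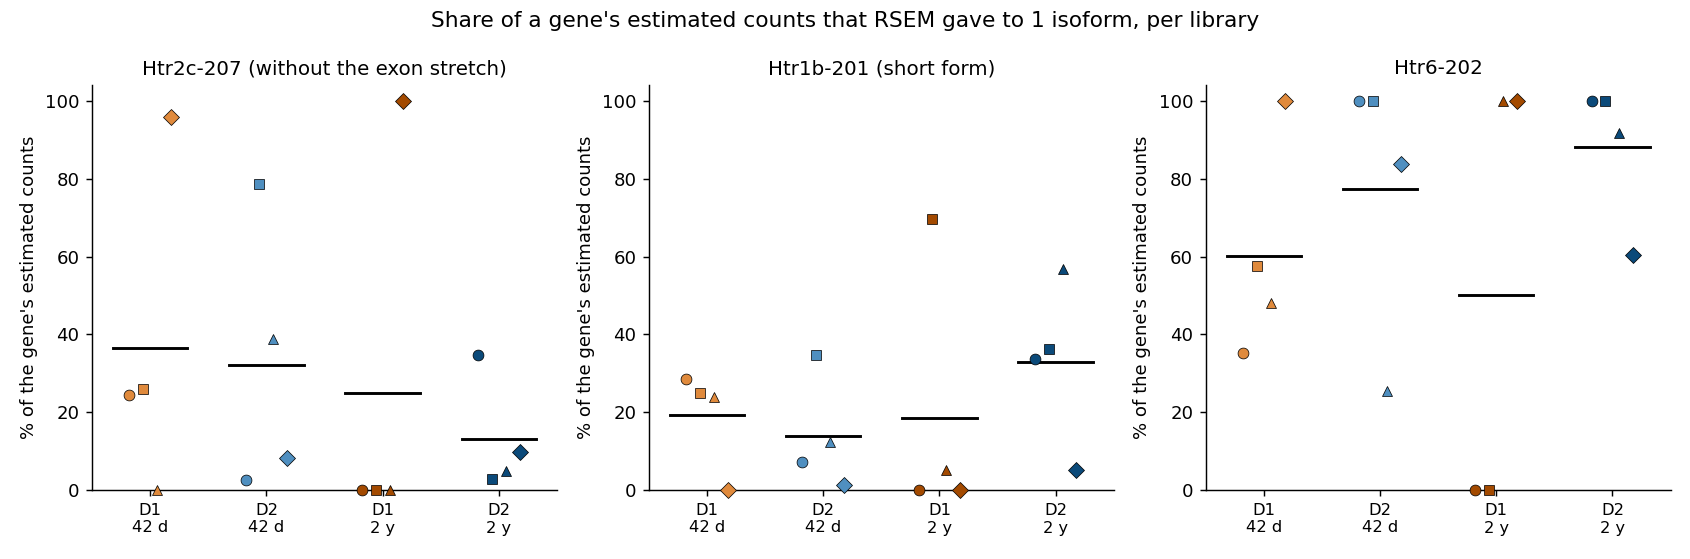
Percent of a gene's RSEM estimated counts given to 1 isoform in each library, for Htr2c-207, Htr1b-201 and Htr6-202. Points are libraries and lines are means of the shares. Shares run from 0 to 95.8% and to 100% within the D1 groups for Htr2c-207, and Htr1b-201 is at 69.5% in 1 old D1 library.

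The Gs receptor Htr4 was lower in old D1 than in old D2 neurons. It was measured at 0.66, 0.93, 0.01 and 0.02 TPM in young D1 and at 3.57, 1.36, 0.14 and 0.20 TPM in young D2. In old D1 it was listed at 0.07, 0, 0 and 0 TPM and in old D2 at 7.77, 5.02, 2.15 and 4.43 TPM. The old groups did not overlap, and the young groups did. In fragments the old D1 libraries held 5, 0, 0 and 0, and old D2 held 726, 588, 340 and 259. The means were 0.037 CPM and 10.2 ± 4.78 CPM (SD, n = 4), and the log2 fold change was -8.05 (SE 2.09, edgeR adjusted p = 0.0205). Its size depends on how values near 0 are treated: it was -2.43 on log2(TPM + 1), and without old D1 replicate 1 all old D1 libraries left were at 0, so the fit sets no size. The direction was the same in all 24 alternatives and the call was lost in 1 of them, the fit of only the compared groups (edgeR adjusted p = 0.0533).

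With age Htr4 moved by -4.62 in D1 on the log2 scale (SE 1.81, edgeR adjusted p = 0.107) and by 1.77 in D2 (SE 1.56, edgeR adjusted p = 1). The difference of -6.39 (SE 2.38) missed the threshold in edgeR (adjusted p = 0.167) and passed it in DESeq2 (adjusted p = 0.0337), as did the age change in D1 (DESeq2 adjusted p = 0.0174). Some marker lists of other cells had higher sums in old D2 than in old D1 libraries. Ependymal markers summed to 5.46 to 36.9 TPM in old D2 and to 0 in every old D1 library, oligodendrocyte markers to 247 to 353 TPM against 75.62 to 190.5, and cholinergic interneuron markers to 19.4 to 36.7 TPM against 0.20 to 3.35. At 2 years, 0 of 2 ependymal, 1 of 6 oligodendrocyte (Cnp), and 1 of 5 cholinergic (Lhx8) markers tested were called, both lower in D1, where 9.6% of all genes were called. Astrocyte markers were split, 3 of 6 with a positive log2 fold change, with Gfap at a mean of 3.10 TPM in old D1 and 17.8 TPM in old D2. GABAergic interneuron markers (4 of 5 positive, median log2 1.68) and choroid plexus markers (3 of 4 positive, median 0.88) leaned to D1, with none called. Their part in the Htr4 difference was not tested.

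Htr6, a Gs receptor known for striatal expression, showed no difference that exceeded its spread. It stood at 5.90, 3.07, 2.41 and 6.03 TPM in young D1, at 6.34, 1.69, 8.99 and 2.08 TPM in young D2, at 4.92, 0.71, 1.18 and 9.45 TPM in old D1 and at 8.60, 3.76, 7.45 and 6.46 TPM in old D2. All 4 ranges overlapped. The log2 fold change of D1 against D2 was 0.00 at 42 days (95% interval -2.20 to 2.21) and -0.59 at 2 years (95% interval -2.80 to 1.63), so a change of several-fold in either direction was not detectable here. Htr6 is the member with the highest base composition, 63.1% G and C in its main isoform, higher than in 99% of the genes tested. Removing a trend over G and C content and length turned its 2-year value to 0.99 and its age change in D1 from -0.03 to 1.91, neither called. Both isoforms, Htr6-201 and Htr6-202, hold a coding sequence of 1320 bases, and 10 of 16 libraries gave at least 90% of the counts to one of them.

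Htr7, the third Gs receptor, held 0 to 50 fragments in each D1 library. It was listed at 0.03, 0.81, 0 and 0 TPM in young D1 and at 0, 0, 0.25 and 0 TPM in old D1, from 1, 50, 0, 0 and 0, 0, 9, 0 fragments. In D2 it stood at 4.34, 2.10, 2.47 and 6.00 TPM at 42 days and at 3.80, 1.12, 0.04 and 9.22 TPM at 2 years, the third old D2 library holding 2 fragments. Young D1 and young D2 did not overlap, while old D1 and old D2 overlapped through that library. Neither difference was called: the log2 fold change was -3.82 at 42 days (SE 2.10, edgeR adjusted p = 0.936) and -6.34 at 2 years (SE 2.37, edgeR adjusted p = 0.0961). The 2-year difference passed the threshold with DESeq2 (adjusted p = 0.00903) and without old D1 replicate 3 (edgeR adjusted p = 0.0386), where all old D1 libraries left were at 0 and the fit sets no size. Cholinergic interneuron markers, which the Drd2 driver can bring in, summed to 0.31 to 6.83 TPM in young D1 and 9.65 to 35.0 TPM in young D2, and their part was not tested.

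Htr7 counts were also split between isoforms. Htr7-201 holds an exon of 97 bases, all coding, at chr19:35964381-35964477 (minus strand) that Htr7-202 lacks, printed here because it is what separates these isoforms before their last exon.

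Htr7-201 exon: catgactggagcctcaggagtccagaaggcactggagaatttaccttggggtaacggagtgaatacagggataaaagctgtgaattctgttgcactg

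Htr7-202 took 99.6, 0, 0 and 74.7% of the gene's estimated counts in young D2 and 84.7, 100, 0 and 100% in old D2, while Htr7-201 took 92.3 and 100% in young D2 replicates 2 and 3. Libraries of one group were thus given opposite forms, and the young D2 libraries given Htr7-201 held 88 and 89 fragments.

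The spread between libraries differed among the receptors and sets what each test could see. edgeR's biological coefficient of variation pools the 4 groups into 1 value per gene. It was 37.7% for Htr1b and 42.0% for Htr2c, below the median gene. The others were 77.2% for Htr2a, 92.2% for Htr1d, 97.0% for Htr6, 137% for Htr4 and 174% for Htr7. For Htr1b the pooled value covers unequal groups, with an SD of 54.8 CPM in old D1 and of 5.56 to 12.2 CPM in the other groups. By the pooled value Htr2c, which was called, is among the 2 least variable members, whereas the call for Htr4 came with the second largest variation.

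Genes whose TPM ran most alike across the 16 libraries were found by Pearson's r of log2(TPM + 1) against 9964 genes, as a description; all points share their library and its depth. Htr1d ran most like Rpl35 (r = 0.956) and Rps27rt (r = 0.936), both ribosomal protein genes, and Edf1 (r = 0.933). For Htr2c these were Pa2g4 (r = 0.902), Gm2a (0.890) and Fbxl6 (0.866), and for Htr1b Chmp7 (0.904), Rpl7l1 (0.867) and Abl1 (0.861). Htr2a ran most like Zfp449 (0.870), Samd10 (0.869) and Gabra3 (0.855), and Htr6 like Rpl35a (0.783), Apc2 (0.782) and Bex3 (0.776). Among the receptors themselves, r was 0.702 for Htr2a with Htr4, 0.640 for Htr2a with Htr2c and 0.584 for Htr4 with Htr7.

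The remaining serotonin receptor genes were low. Of 7 listed, 4 were tested and none was called in any comparison. Htr5a, coupled to Gi/o, had the highest mean TPM of them in every group but old D1. It stood at 4.26, 7.43, 3.45 and 22.9 TPM in young D1 and at 2.36, 1.23, 0.78 and 8.67 TPM in young D2. At 2 years it stood at 0.49, 3.02, 2.91 and 0.14 TPM in D1 and at 3.44, 3.94, 3.15 and 2.24 TPM in D2. Its age change in D1 was -2.78 on the log2 scale (SE 0.98, edgeR adjusted p = 0.0736). Htr1f ran from 0 to 12.2 TPM, and Htr3a, a subunit of the ion-channel receptor, was at 0 in every library. Htr3b, another such subunit and not tested, had the highest mean in old D1, through 1 library at 9.97 TPM (406 fragments). In young D2 Htr3b reached 0.35 TPM in 1 library, and it was at 0 in young D1 and old D2. Tph2, Slc6a4 and Fev, 3 of 4 listed markers of serotonin neurons, were also at 0 in every library. The other listed marker, Slc22a3, had a count in every library. It ran from 4.22 to 9.59 TPM in young D1 and from 1.2 to 9.57 TPM in young D2. At 2 years it ran from 1.26 to 43.7 TPM in D1 and from 0.18 to 4.98 TPM in D2. Slc22a3 was not called in any comparison (2 years, log2 2.35, SE 1.03, edgeR adjusted p = 0.156). Of 11 genes for serotonin synthesis, transport and breakdown, 7 were tested, and 1 was called, in the age change in D1 where 10.8% of all genes were called. It was Slc29a4, a low-affinity monoamine transporter, which fell with age in D1. Slc29a4 stood at 1.67, 0.48, 3.43 and 1.42 TPM in young D1 and at 0 in all 4 old D1 libraries, at least 136-fold lower when the old group is set at 3 counts over its libraries (edgeR adjusted p = 0.0192).

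For the Gi/o pathway downstream of Htr1b and Htr1d, 8 of 9 listed genes were tested. Gnai1, the alpha subunit through which Htr1b and Htr1d can act, was higher in D1: 179 to 268.5 TPM against 54.4 to 82.3 TPM at 42 days (log2 1.91, SE 0.18, edgeR adjusted p = 3.93e-06), and 287 to 409 against 78.2 to 96.6 TPM at 2 years (log2 2.08, SE 0.18, edgeR adjusted p = 1.03e-06). Rgs4, which speeds the turn-off of Gi/o and Gq, fell with age in D2 from 881 to 998 TPM to 290 to 418 TPM (log2 -1.47, SE 0.18, edgeR adjusted p = 5.99e-04). It was then higher in D1 than in D2 at 2 years (log2 1.12, edgeR adjusted p = 7.26e-04), and the difference of its age changes was called too (log2 1.19, edgeR adjusted p = 0.0232). Gnai2 fell with age in D1 (log2 -2.33, SE 0.56, edgeR adjusted p = 0.0124; lost in 3 of 24 alternatives). No call for Gnai1 was lost in 24 alternatives, and that for the difference of Rgs4 age changes was lost in 7.

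For Gq, 10 of 11 listed genes were tested, and calls at 2 years went in both directions. Among those higher in D1 than in D2 were Prkcb, a protein kinase C gene (log2 0.95, edgeR adjusted p = 0.00152), Plcb1, the phospholipase C gene (0.90, edgeR adjusted p = 0.0208), and Dgkb, a diacylglycerol kinase (0.84, edgeR adjusted p = 0.00668). Gna11, one of the Gq-class alpha subunits, was lower (log2 -1.52, SE 0.37, edgeR adjusted p = 0.0143), at 10.3 to 57.4 TPM in old D1 against 80.7 to 125 TPM in old D2. With age in D1, Gnaq, Itpr1, Dgkb and Plcb1 rose and Gna11 fell, 4 and 1 of 10, where 10.8% of all genes were called in either direction, and none of the list was called for the age change in D2 or for the difference. The median of the 10 log2 fold changes at 2 years was 0.67, beside -0.07 over all genes. Calls for Gna11 and Dgkb at 2 years were lost when the G and C trend was removed, and that for Plcb1 at 2 years was lost in 8 of 24 alternatives. With age in D1 the call was lost in 19 of 24 for Dgkb, 18 for Gnaq, 8 for Plcb1, 5 for Gna11 and 0 for Itpr1.

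For Gs, all 14 listed genes were tested. Gnas, the widely expressed stimulatory alpha subunit, was lower in D1 at 42 days, at 30.1 to 66.3 TPM against 149 to 263 TPM (log2 -1.97, SE 0.29, edgeR adjusted p = 0.00136), and at 2 years (log2 -0.97, SE 0.28, edgeR adjusted p = 0.0364; lost in 9 of 24 alternatives). The gene has overlapping transcripts on both strands, so its assignment is uncertain. Ppp1r1b (DARPP-32, log2 -1.11) and the phosphodiesterase Pde1b (log2 -0.58) were also lower in D1 at 2 years (edgeR adjusted p = 2.48e-04 and 0.0164), and Pde1b turned to 0.15 when the G and C trend was removed. With age in D1, Gnal, the striatal Golf alpha subunit that couples Gs-type receptors to adenylyl cyclase there, rose (log2 0.78, SE 0.17, edgeR adjusted p = 0.00608), while Ppp1r1b, Prkaca and Pde1b fell (the call for Prkaca was lost in 8 of 24 alternatives). The difference of age changes was called for Gnal (lost in 14 alternatives) and Ppp1r1b (lost in 9).

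**Figure D4:**
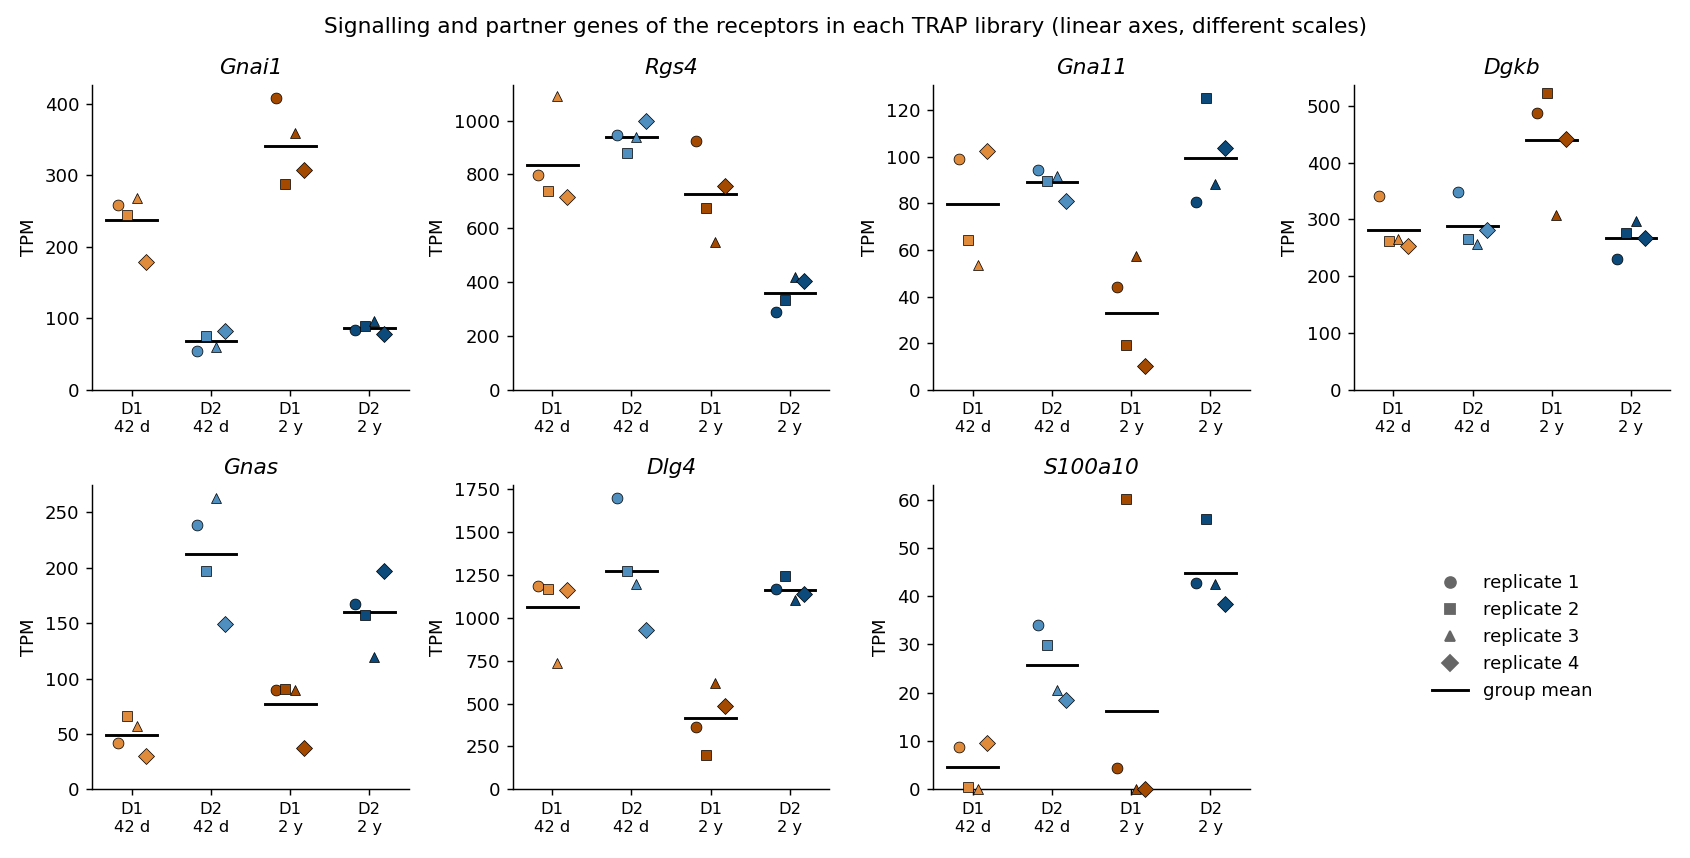
TPM of signalling and partner genes of the serotonin receptors in each library, drawn as for the receptors, with lines for group means. Gnai1 lies at 179 TPM or above in all D1 libraries and at 96.6 TPM or below in all D2 libraries, and Rgs4 is lowest in old D2.

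Of the partner proteins and editing enzymes, 12 of 13 were tested. Dlg4 (PSD-95), a scaffold that binds the tail of Htr2a and Htr2c, was lower in old D1, at 361, 203, 617 and 487 TPM, than in old D2, at 1168, 1243, 1105 and 1136 TPM (log2 -1.47, SE 0.19, edgeR adjusted p = 1.16e-04). It fell with age in D1 (log2 -1.64, SE 0.19, edgeR adjusted p = 8.84e-05), and the difference of its age changes was called (log2 -1.36, edgeR adjusted p = 0.0178; lost in 3 alternatives). Grk5, a receptor kinase, fell with age in D1 (log2 -3.49, SE 1.02, edgeR adjusted p = 0.0338; lost in 7 of 24 alternatives). S100a10 (p11), which binds Htr1b and Htr4 and brings them to the cell surface, stood at 33.96, 29.8, 20.6 and 18.4 TPM in young D2 and at 8.80, 0.46, 0 and 9.70 TPM in young D1, ranges that did not overlap. In old D2 it was at 42.7, 55.9, 42.5 and 38.4 TPM and in old D1 at 4.50, 60.1, 0.09 and 0 TPM, where the second replicate, also the highest for Htr1b, lay above all D2 libraries. S100a10 was not called at either age (log2 -2.23, SE 1.65, and -1.33, SE 1.6008; edgeR adjusted p = 0.999 and 0.666).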

How the data were processed

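The 16 striatal TRAP libraries were analysed, and 3 ribosome profiling samples of NIH-3T3 cells are not analysed here. Per the submitters' processing notes, the tools were STAR (version 2.5.1b) and RSEM (version 1.2.20), on build mm10. Values deposited by the authors are RSEM expected counts (estimated counts of fragments, which need not be whole), TPM and the percent of a gene given to each isoform, per the file headers. Which annotation, trimming or strand setting was used is not stated in the labels or file headers. The cDNA was amplified with NuGEN Ovation V2, per the labels' protocols, so counting limits cover counting error only.

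Expected counts, of which 20.0% of nonzero gene values were not whole, were rounded, filtered with filterByExpr, scaled by TMM and fitted over all 16 libraries with edgeR 4.0.16 (limma 3.58.1, DESeq2 1.42.0, R 4.3.3) as robust quasi-likelihood, with 1 mean per group; the test was tried on simulated data. Isoform shares were computed from the estimated counts. Names, positions, transcript sequences and base composition came from GENCODE M21 (37607 of 39017 genes matched). The labels give a barcode per library, and no batch or pairing. The 7 receptors and the gene lists were chosen with earlier results of these data known. Named genes are the 7 receptors, every called member of the pathway and marker lists (1 of which is not reported here), and the 3 genes most alike to each receptor of at least 5 TPM in a group. Htr5a, Htr1f, Htr3b, Slc22a3, S100a10, Ttr, Enpp2, Adar and Adarb1, not called, were named after their values were seen. Alternatives were other size factors, DESeq2, limma-voom, limma on log2 TPM (pseudocount 1 or 0.1), no count filter, only the compared groups, a G and C trend removed and each library left out.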

Additional observations from a re-analysis of the deposited data

Results flagged for a closer look

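Within each group of 4 libraries, the highest and lowest TPM of each receptor were compared with the others by Dixon's test at its 95% critical value. Of 28 sets of 4 values, 5 held a library this far from the rest, where chance gives about 1 in 20 sets of normally distributed values. TPM was not transformed for this, and the chance rate for such values was not computed. The rate of 1 in 20 does not hold for Htr4 and Htr7 in old D1, where the other 3 values are 0. Nor does it hold for Htr7 in young D1, where the others are 0.03, 0 and 0 TPM. Htr1b was highest at 90.81 TPM in 1 young D2 library and at 217.31 TPM in 1 old D1 library. The other 3 sets are receptors near 0 with 5, 50 and 9 fragments in 1 library: Htr4 at 0.07 TPM in old D1, Htr7 at 0.81 TPM in young D1 and Htr7 at 0.25 TPM in old D1.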

How the results depend on the processing

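Over 835 values of the 7 receptors under the alternatives, 768 kept direction and side of the threshold, 44 changed sign, 12 lost a call and 11 gained one; each sign change was in a comparison where that receptor was not called. The spread between libraries and counts near 0 limit Htr4 and Htr7, and the 4 old D1 libraries limit every comparison at 2 years and every age change in D1. Counts of genes called moved by over 1.5 times as follows. DESeq2 called 187 genes at 42 days, 2402 at 2 years, 2600 for the age change in D1, 102 for that in D2 and 1019 for the difference. Limma-voom called 203, 655, 547 and 167 in the first 4, and the fit of only the compared groups 98, 354, 305 and 39. Removing the G and C trend, recentred on the median gene after a first version had shifted all genes, gave 941 for the age change in D1 (631 higher, 310 lower) and 148 for the difference (116 higher, 32 lower), and 658 higher and 349 lower at 2 years. Without these changes the splits were 699 and 638 at 2 years, 750 and 758 for the age change in D1 and 129 and 117 for the difference. Voom gave 471 and 184, 392 and 155, and 140 and 42 in these comparisons. Log2 TPM leaned to lower calls: 481 and 1109 (pseudocount 1) or 456 and 1228 (0.1) at 2 years, and 66 and 124 or 74 and 154 for the difference. Leaving out each library gave 40 to 90, 692 to 1873, 909 to 2055, 5 to 18 and 66 to 656 genes.

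Changed signs at 42 days were Htr2c with voom (-0.29) and log2 TPM (-0.076 with pseudocount 1, -0.078 with 0.1), and Htr6 with voom (-0.13), with no filter (-0.001) and without the trend (-0.21). At 2 years they were Htr1b on log2 TPM (-0.63 with pseudocount 1, -0.66 with 0.1) and counted with its antisense gene (-0.29), and without the trend Htr6 (0.99) and Pde1b (0.15). For the age change in D1 they were Htr1b with its antisense gene (-0.082), Htr6 with other size factors (0.007), DESeq2 (0.006) and without the trend (1.91), and Pde1b without the trend (0.093). For the age change in D2 they were Htr1b on log2 TPM (0.15 with either pseudocount) and Htr7 with voom (-0.87) and on log2 TPM (-0.47 and -1.156). For the difference they were Htr6 without the trend (1.204) and Htr7 with voom (0.059) and on log2 TPM (0.33 and 0.72). The cause was not tested. Leaving out each library, ranges that crossed 0 were -0.38 to 0.44 (2 years) and -0.11 to 0.72 (age change in D1) for Htr1b, -0.10 to 0.34 (age change in D2) for Htr1d, -0.35 to 0.24 (42 days) for Htr2c, -0.54 to 0.35 (42 days) and -1.49 to 0.48 (age change in D1) for Htr6, and -6.887 to 2.58 (age change in D1), -1.02 to 0.52 (age change in D2) and -6.936 to 2.54 (difference) for Htr7. No paired analysis was possible because the replicate numbers follow the order of the records and the labels share no number between groups.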
